A study of Arabidopsis thaliana with 10 samples.

Results

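A set of 5 Arabidopsis genes of the plant surface and secretory lipid families was followed over the 10 arrays of the study, kept apart by family. AT3G53980 and AT1G62510 are of the lipid-transfer type, and AT1G54020, AT4G18970 and AT5G33370 encode GDSL lipases. They are 5 of the 13286 genes with a named probe set, and each was read by a single probe set that the platform annotation gives to that gene alone. The members were chosen by earlier results of these same arrays: AT3G53980 and AT1G54020 were selected on the change in the CesA4 line, AT1G62510 on the change in the CesA6 line, and AT4G18970 on the difference between the changes of the lines. The basis for AT5G33370 is not known. Values behind those choices are given below as a description with no test. Tests of a member in the other line use a spread estimated over all 10 arrays, so they are not independent of those choices. All 5 passed the filter on dim probe sets.

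Lipid-transfer proteins are small secreted proteins held together by disulphide bridges around a cavity that binds lipid. Members of the wider lipid-transfer and 2S albumin superfamily are found in the cell wall, on the membrane and in the cuticle, and they have been tied to cuticle lipid delivery, to defence and to storage. GDSL lipases are hydrolases named after the residues around their catalytic serine. The family includes the cutin synthases, which polymerise cutin in the wall, and members that act on other wall esters, on lipids or in defence.

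RNA came from rosettes of 4-week-old, untreated plants of ecotype Col-0, hybridised to Affymetrix ATH1 arrays. The groups were homozygotes and heterozygotes of a CesA4 line with the allele irx5-2 (3 arrays each) and homozygotes and heterozygotes of another line (2 arrays each). The labels name that other line both AtCesA6 and irx6-1, whereas IRX6 is a synonym of COBL4 in the reference, a gene distinct from CESA6. It is called the CesA6 line here. CESA4 serves the cellulose synthase complex of secondary walls and CESA6 that of primary walls. Heterozygous plants of the same line, which carry the mutant allele too, were the reference in each comparison, and wild-type plants were not analysed here. The genotypes were not checked against transcripts, because the annotation names no probe set for CESA4, CESA6 or COBL4. The labels do not say whether arrays of a group came from separate plants, so n counts arrays and the p-values measure the spread between arrays, which may be technical.

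All signals are the deposited array intensities, which had been scaled to a 2% trimmed mean of about 100 on every array (values of 100.01). Log2 changes are differences of log2(signal + pseudocount) with their standard error (SE), where the pseudocount equals 3.2 on the deposited scale, and they understate the changes of dim probe sets. A gene is said to have risen or fallen where limma's Benjamini-Hochberg adjusted p over 15922 tested probe sets was under 0.05. Replicate arrays of a group correlated at 0.935 to 0.954, and the lowest correlation of any 2 arrays was 0.874. The leaf marker RCA (rubisco activase), the only gene with a named probe set of 12 on a leaf list, stood between 9890 and 11975 on every array. The epidermal marker FAMA, a guard cell transcription factor and 1 of 10 on its list with a named probe set, stood between 26.1 and 58.2. Neither differed past the threshold in either line. On the root list 1 of 4 genes had a named probe set, PYK10, a beta-glucosidase of root endoplasmic reticulum bodies. Its signal was 368.2 ± 78.4 and 196.0 ± 105 (SD) in homozygous and heterozygous CesA4 arrays (n = 3 each) and 319.3 ± 57.8 and 109.3 ± 17.0 in the CesA6 arrays (n = 2 each). It was higher in homozygous arrays by 1.02 ± 0.34 and 1.52 ± 0.41 on the log2 scale, at limma adjusted p = 0.0736 and 0.05004, both over the threshold. It moved in the same direction as the high genes described next, and its part in their values was not tested. Lists of seed, flower and vascular markers had no gene with a named probe set. Here a probe set counts as named where the annotation gives it 1 gene matched to the reference, 13436 of 22810 on the array. The array may still measure the other genes.

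AT3G53980, a lipid-transfer-type gene, was bright in all homozygous arrays and dim in all heterozygous arrays. In the CesA4 line its signal was 944.9, 1219.7 and 917.0 in homozygous replicates 1 to 3 and 30.2, 77.6 and 56.8 in heterozygous replicates 1 to 3. In CesA6 plants it was 794.2 and 976.9 in homozygous replicates against 105.2 and 134.4 in heterozygous replicates. The genotypes did not overlap in either line. How many of all probe sets show no overlap was not counted, here or for the genes below. With 2 or 3 arrays in a group it can arise with no difference. The CesA4 values, on which the gene was selected, correspond to means of 1027 ± 167 and 54.8 ± 23.7 (SD, n = 3 each) and a log2 difference of 4.23 ± 0.25. In the CesA6 line, which did not serve to select it, AT3G53980 rose in homozygous plants by 2.86 ± 0.31 on the log2 scale (limma adjusted p = 1.27e-05), from 119.8 ± 20.6 to 886 ± 129 (SD, n = 2 each). Of all tested probe sets, 3.72% were called higher in that comparison. Over whole rosettes, fewer cells of a type and less RNA per cell cannot be told apart, for this gene and the others.

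The order of the AT3G53980 groups put the homozygous CesA4 and CesA6 arrays at the top, with overlapping values and a log2 gap of 0.21, and below a gap of 2.86 came the heterozygous CesA6 arrays, and the heterozygous CesA4 arrays lay a further 1.16 lower. Both of those steps were free of overlap. The heterozygous CesA4 values are part of the contrast used for selection, so the step between the heterozygous groups is a description. The change in the CesA4 line exceeded that in the CesA6 line by 1.37 ± 0.40, a value that contains the contrast used for selection and is given without a test.

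AT1G62510, the other lipid-transfer-type gene, showed the same split between genotypes. Its signal was 834.6, 908.7 and 1224.4 in homozygous CesA4 replicates and 81.9, 101.5 and 152.5 in heterozygous CesA4 replicates. CesA6 arrays gave 688.1 and 1041.4 in homozygous and 52.8 and 83.4 in heterozygous replicates. Every homozygous array of a line was above every heterozygous array of that line. AT1G62510 was selected on the CesA6 line, where the log2 difference was 3.61 ± 0.29 between means of 865 ± 250 and 68.1 ± 21.6 (SD, n = 2 each). In the CesA4 line it rose by 3.13 ± 0.24 (limma adjusted p = 4.29e-08), from 112 ± 36.5 to 989 ± 207 (SD, n = 3 each), in a comparison that called 8.2% of all tested probe sets higher.

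For AT1G62510 the homozygous groups overlapped (log2 gap 0.20), and so did the heterozygous groups (0.68, with the CesA4 plants higher on average). A gap of 2.93 with no overlap separated them. The difference between the changes of the lines was -0.48 ± 0.37 and the line difference, CesA4 minus CesA6 over both genotypes, was 0.44 ± 0.19. The corresponding line difference of AT3G53980 had the opposite sign, at -0.48 ± 0.20. The difference of changes of AT1G62510 was -0.16 without heterozygous CesA6 replicate 1 and -0.79 without replicate 2, its line difference 0.28 and 0.60, and the line difference of AT3G53980 was -0.30 without heterozygous CesA4 replicate 1. All are descriptions, since the groups that enter them served to select the genes.

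**Figure D1:**
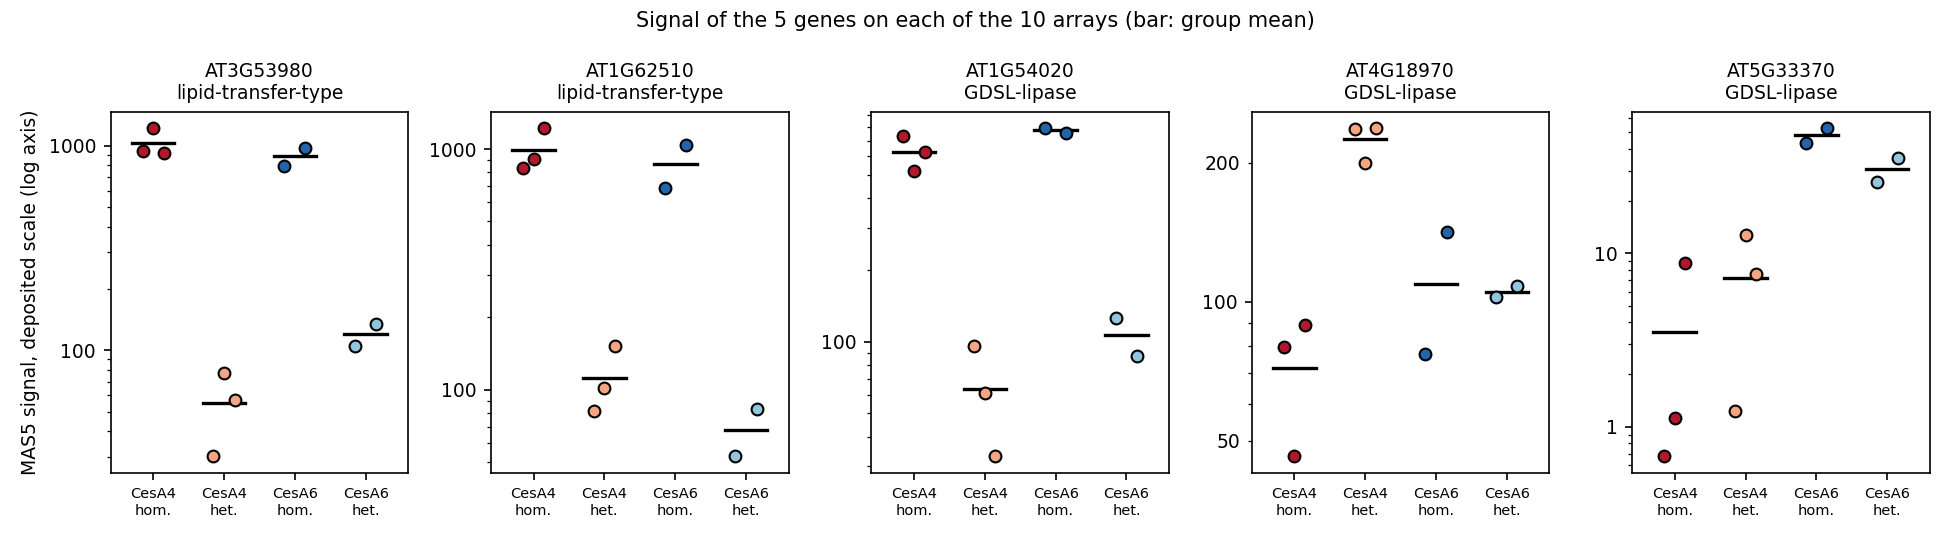
Signal of the 5 genes on each of the 10 arrays, on the deposited intensity scale, with a log axis whose range differs between panels; points are arrays and bars are group means, for homozygous (hom.) and heterozygous (het.) plants of the CesA4 and CesA6 lines. AT3G53980, AT1G62510 and AT1G54020 stand between 521.4 and 1224.4 in homozygous and between 30.2 and 152.5 in heterozygous arrays, while AT4G18970 is low in the homozygous CesA4 arrays and AT5G33370 is low in all 6 CesA4 arrays.

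Among the GDSL lipases, AT1G54020 behaved like the lipid-transfer-type pair in its group values. Its signal was 730.3, 521.4 and 628.9 in homozygous CesA4 replicates and 96.1, 60.9 and 33.0 in heterozygous CesA4 replicates. Homozygous CesA6 replicates gave 790.7 and 753.1 and the heterozygous replicates 126.1 and 87.5. No heterozygous array reached a homozygous array. The log2 difference in the CesA4 line, used for its selection, was 3.35 ± 0.29 (means 627 ± 104 and 63.3 ± 31.6, SD, n = 3 each). In the CesA6 line AT1G54020 rose by 2.84 ± 0.36 (limma adjusted p = 0.000193), from 107 ± 27.3 to 772 ± 26.5 (SD, n = 2 each).

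AT1G54020 was highest in the homozygous CesA6 arrays, whose values lay just above those of the homozygous CesA4 arrays without overlap (log2 gap 0.31). The heterozygous CesA6 arrays came 2.53 lower, and the heterozygous CesA4 arrays, which overlapped them, 0.82 below those. The line difference was -0.57 ± 0.23 and the difference between changes 0.51 ± 0.46. Without heterozygous CesA4 replicate 1 they were -0.74 and 0.86, and without heterozygous CesA4 replicate 3 they were -0.38 and 0.13.

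AT4G18970, a GDSL lipase selected on the difference between lines, ran the other way in the CesA4 line. Its signal was 79.8, 46.2 and 89.0 in homozygous and 237.0, 200.1 and 238.2 in heterozygous CesA4 replicates. CesA6 arrays gave 77.1 and 141.8 in homozygous and 102.4 and 108.0 in heterozygous replicates. The CesA4 genotypes were well apart, whereas the homozygous CesA6 replicates fell on either side of the heterozygous ones. The log2 difference was -1.65 ± 0.23 in the CesA4 line (means 71.7 ± 22.5 and 225 ± 21.6, SD, n = 3 each) and -0.01 ± 0.28 in the CesA6 line (109 ± 45.7 and 105 ± 3.98, SD, n = 2 each). The difference between these changes was -1.65 ± 0.37. The CesA6 value rests on single arrays, being 0.42 without homozygous CesA6 replicate 1 and -0.43 without replicate 2, and the difference between changes then became -2.07 and -1.22. The difference tests called 0.333% of all probe sets higher and 0.22% lower in the CesA4 line than in the CesA6 line.

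The groups of AT4G18970 stood in the order heterozygous CesA4, heterozygous CesA6, homozygous CesA6 and homozygous CesA4. Only the first step was free of overlap, with a log2 gap of 1.07, and the next steps were 0.01 and 0.58.

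AT5G33370 was a dim GDSL lipase whose values followed the line more than the genotype. Its signal was 0.674, 1.12 and 8.77 in homozygous and 1.24, 12.7 and 7.61 in heterozygous CesA4 replicates, with overlap between the genotypes. CesA6 arrays gave 43.1 and 52.9 in homozygous and 26.0 and 35.5 in heterozygous replicates. These did not overlap, but the CesA6 genotype difference given below is smaller than its SE. All 4 CesA6 arrays were above all 6 CesA4 arrays. The group means were 3.52 ± 4.55 and 7.19 ± 5.75 (SD, n = 3 each) in homozygous and heterozygous CesA4 plants, and 48.0 ± 6.96 and 30.8 ± 6.78 (SD, n = 2 each) in the CesA6 plants. The log2 line difference was -2.50 ± 0.50, and the genotype differences were -0.64 ± 0.63 and 0.60 ± 0.78 in the CesA4 and CesA6 lines. Several CesA4 values lie under the pseudocount, and the line difference ran from -3.18 with a pseudocount of 0.8 to -1.38 with one of 16, both on the deposited scale. AT5G33370 passed the filter on dim probe sets through its CesA6 arrays: its mean log2 value over all arrays was 6.19 against a limit of 5.90, but 5.19 over the CesA4 arrays and 7.69 over the CesA6 arrays.

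Across the 10 arrays, log2 values of the 3 genes that were high in homozygous plants ran together, with Pearson r of 0.92 between AT3G53980 and AT1G62510, 0.93 between AT3G53980 and AT1G54020, and 0.88 between AT1G62510 and AT1G54020. These values mainly restate the common split by genotype. Once each group's mean was taken out, the deviations of the lipid-transfer-type pair still had r = 0.44, while those of AT1G54020 had r = -0.64 with AT3G53980 and r = -0.76 with AT1G62510. These values are descriptions: 10 deviations from 4 group means leave 6 degrees of freedom, on arrays that share their scaling. Deviations of the 2 arrays of a CesA6 group mirror each other. The heterozygous CesA4 arrays had the largest log2 SD of AT3G53980 and AT1G54020, 0.65 and 0.73. AT4G18970 had r = -0.80, -0.58 and -0.73 with AT3G53980, AT1G62510 and AT1G54020 over all arrays, and r = -0.22, 0.47 and 0.11 once group means were taken out.

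Among 8703 named probe sets, the genes most like each member over the 10 arrays were found by Pearson r of log2 values. AT3G53980 was closest to AT4G30460 (r = 0.987, Spearman rho 0.879), AT4G23670 (0.984, 0.782) and AT4G19450 (0.982, 0.855). AT1G62510 was closest to AT1G73920 (0.988, 0.903), AT5G43260 (0.985, 0.903) and AT3G20300 (0.984, 0.879). Likeness in r does not mean a change of like size. AT4G30460 had the largest changes of these genes, 2.41 ± 0.21 and 1.66 ± 0.26 on the log2 scale in the CesA4 and CesA6 lines, whereas AT4G19450 had 0.58 ± 0.16 and 0.48 ± 0.20, the second not called (limma adjusted p = 0.154).

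For the GDSL lipase AT1G54020 the closest genes were AT1G49450 (r = 0.979, rho 0.915), AT5G53710 (0.978, 0.976) and AT3G28220 (0.978, 0.891). AT4G18970 was closest to AT4G26480 (0.954, 0.988), to the bZIP transcription factor gene BZIP53 (0.954, 0.903) and to AT2G40760 (0.937, 0.879). AT5G33370 was closest to GLC (0.951, 0.927), AT1G80290 (0.923, 0.903) and AT2G03550 (0.893, 0.891). All of these points share arrays and scaling, and the values are descriptions.

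The rest of the lipid-transfer-type family was read from a list of 111 loci, of which 48 had a named probe set besides the members and 25 passed the filter on dim probe sets. In homozygous CesA4 plants 7 rose, 4 fell and 14 did not pass the test, that is 28% and 16% called, beside 8.2% of all tested probe sets higher and 6.93% lower. Homozygous CesA6 plants had 4 genes that rose, 4 that fell and 17 that did not pass, 16% in each direction, beside 3.72% higher and 4.8% lower of all. The median log2 change of the 25 was 0.21 and 0.05 in the CesA4 and CesA6 lines, against 0.02 and -0.04 over all tested probe sets. These medians moved with the arrays and the filter, from 0.52 without homozygous CesA4 replicate 1 to 0.0015 with the dimmest 50% left out in the CesA4 line, and from -0.039 without homozygous CesA6 replicate 1 to 0.16 without heterozygous CesA6 replicate 2 in the CesA6 line. All 8 genes called in the CesA6 line were among the 11 called in the CesA4 line, in the same direction. The share of all probe sets called in both lines was not counted, here or for the GDSL lipases. The difference between the changes was called for 0 of the 25 by limma beside 0.333% higher and 0.22% lower of all tested probe sets. At an unadjusted p under 0.05 there were 2 (8%, and 1 without the trend and robust options), beside 12% of all. The median difference was 0.19 against 0.08 over all, and it ran from 0.0027 without homozygous CesA4 replicate 2 to 0.32 without homozygous CesA4 replicate 1, and was -0.041 with the dimmest 50% left out.

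AT2G37870 rose most, from 41.0 ± 20.9 to 363.9 ± 44.4 in the CesA4 line (SD, n = 3 each) and from 51.2 ± 6.60 to 469.3 ± 20.1 in the CesA6 line (SD, n = 2 each). Its log2 changes of 3.15 ± 0.24 and 3.12 ± 0.29 (limma adjusted p = 7.7e-09 and 4.41e-07) were close to those of AT1G62510. AT4G33550 rose by 2.54 ± 0.29 and 2.02 ± 0.35 and AT3G22620 by 1.94 ± 0.22 and 1.49 ± 0.27 in the CesA4 and CesA6 lines. AT5G05960 rose in the CesA4 line by 1.50 ± 0.32 (limma adjusted p = 0.00955) and had a value of 0.62 ± 0.40 in the CesA6 line, which was 1.09 without heterozygous CesA6 replicate 1 and 0.16 without replicate 2. AT2G44300 rose by 1.04 ± 0.27 and 1.10 ± 0.33, with limma adjusted p of 0.00938 and 0.0412. Its CesA4 call was lost without homozygous CesA4 replicate 1, and its CesA6 call without that array or without any of 3 CesA6 arrays, being 0.48 without homozygous CesA6 replicate 2.

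Other lipid-transfer-type genes fell. AT2G45180, a bright gene, went from 3727 ± 279 to 1261 ± 12.0 in the CesA4 line and from 1923 ± 249 to 796 ± 11.3 in the CesA6 line, log2 changes of -1.56 ± 0.12 and -1.26 ± 0.15 (limma adjusted p = 3.96e-09 and 4.47e-06). AT2G10940 fell with changes of -1.38 ± 0.14 and -0.68 ± 0.17, AT5G48490 with -1.21 ± 0.17 and -0.79 ± 0.21, and AT5G55450 with -1.15 ± 0.25 and -1.35 ± 0.31. The CesA6 calls of these last 3 genes rest on few arrays. That of AT5G55450 was lost without any single CesA6 array (-1.27 to -1.42). That of AT5G48490 was lost without either homozygous replicate or heterozygous replicate 2 (-0.53), and that of AT2G10940 without homozygous replicate 1 (-0.53) or heterozygous replicate 2 (-0.59).

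**Figure D2:**
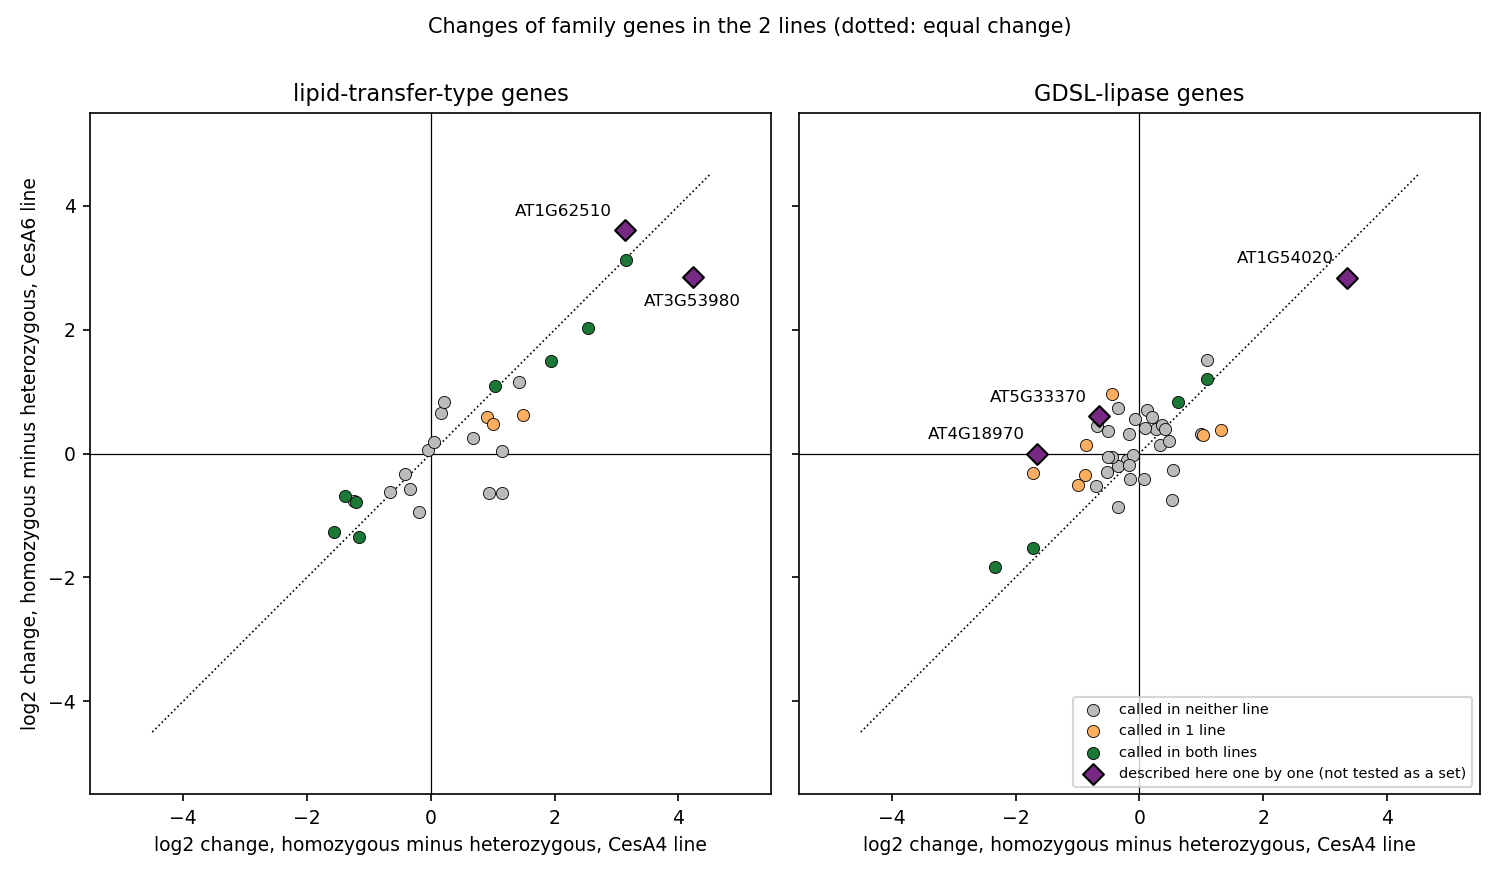
Log2 change, homozygous minus heterozygous, in the CesA4 line (x axis) and in the CesA6 line (y axis) for the tested lipid-transfer-type and GDSL-lipase genes; circles are the 25 and 39 other family genes, coloured by the number of lines in which limma called them, diamonds are the 5 genes described above, and the dotted line marks equal change. The lipid-transfer-type genes called in both lines, 8 in all, lie on either side of 0 with changes of the same sign in both lines. AT4G18970, selected on the difference between lines, lies off the dotted line, at -1.65 and -0.01. Others off it include AT3G53980 (4.23 and 2.86), AT3G48460 (-0.44 and 0.96) and AT4G28780 (-1.71 and -0.31).

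The GDSL-lipase family was read from 104 loci, of which 69 had a named probe set besides the members and 39 passed the filter. In homozygous CesA4 plants 4 rose, 6 fell and 29 did not pass the test, 10.3% and 15.4% called, beside the background of 8.2% and 6.93%. In the CesA6 line 3 rose, 2 fell and 34 did not pass, 7.69% and 5.13% called, beside 3.72% and 4.8%. The share of genes called lower in the CesA6 line was thus near that of all probe sets. The median change was -0.15 and 0.14 in the CesA4 and CesA6 lines. The first was -0.084 without heterozygous CesA4 replicate 1, and the second changed sign without heterozygous CesA6 replicate 1 (-0.027), with no filter (-0.031) and with the dimmest 50% of probe sets left out (-0.050). Of the 10 genes called in the CesA4 line and the 5 called in the CesA6 line, 4 were the same genes, all in the same direction.

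AT1G29660 fell most, from 1062 ± 129 to 207 ± 7.96 in the CesA4 line (SD, n = 3 each) and from 699 ± 2.73 to 195 ± 6.64 in the CesA6 line (SD, n = 2 each). Its log2 changes were -2.33 ± 0.14 and -1.83 ± 0.17 (limma adjusted p = 6.92e-11 and 2.16e-07). The gene next to it on the chromosome, AT1G29670, is another GDSL lipase. It fell in the CesA4 line with a change of -0.86 ± 0.15 (limma adjusted p = 0.000217), and its CesA6 value of 0.13 ± 0.18 became -0.046 without homozygous CesA6 replicate 2. AT1G33811 fell in both lines, with changes of -1.72 ± 0.18 and -1.53 ± 0.22. AT4G28780 fell in the CesA4 line with a change of -1.71 ± 0.31 and AT5G45670 with one of -0.99 ± 0.21, and their CesA6 values of -0.31 ± 0.37 and -0.51 ± 0.26 did not pass and ran from -0.43 to -0.19 (without heterozygous CesA6 replicate 1 or 2) and from -0.86 to -0.16 (without homozygous CesA6 replicate 2 or 1).

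The GDSL lipases that rose did so by less than AT1G54020, which was itself selected on its change in the CesA4 line. That order is therefore a description. AT2G03980 rose by 1.10 ± 0.17 and 1.20 ± 0.21 in the CesA4 and CesA6 lines (limma adjusted p = 6.48e-05 and 0.000471), and AT1G31550 rose by 1.31 ± 0.15 in the CesA4 line with 0.39 ± 0.19 in the CesA6 line. AT3G53100 rose by 0.62 ± 0.20 and 0.84 ± 0.24 and AT1G28570 by 1.04 ± 0.32 in the CesA4 line, with 0.30 ± 0.39 in the CesA6 line. The CesA4 call of AT1G28570 was lost without homozygous replicate 1 or 3 or heterozygous replicate 1 or 3 (0.85 to 1.02). The CesA4 call of AT3G53100 was lost without any CesA4 array but homozygous replicate 1 (0.56 to 0.65), and its CesA6 call without any CesA6 array but homozygous replicate 1 (0.69 to 0.95).

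The difference between the changes of the lines was called for 1 of the 39 GDSL lipases, AT3G48460, which is 2.56% called lower beside 0.22% of all tested probe sets. At an unadjusted p under 0.05 there were 8 of the 39 (20.5%) beside 12% of all. Without the trend and robust options there were 6 (15.4%) beside 10.2% of all. The median difference was -0.19 against 0.08 over all, and ran from -0.36 without homozygous CesA6 replicate 1 to -0.13 without homozygous CesA6 replicate 2. Its signal was 252 ± 16.5 and 350 ± 82.8 in homozygous and heterozygous CesA4 arrays (SD, n = 3 each) and 347 ± 35.9 and 177 ± 9.68 in the CesA6 arrays (SD, n = 2 each). It rose in the CesA6 line by 0.96 ± 0.21 (limma adjusted p = 0.00363), had -0.44 ± 0.17 in the CesA4 line (0.0869), and the difference was -1.40 ± 0.27 (0.0164). That difference was no longer called without heterozygous CesA4 replicate 1 or 3, homozygous CesA6 replicate 2, or either heterozygous CesA6 replicate (-1.26 to -1.46). The CesA6 call was lost without homozygous replicate 2 or heterozygous replicate 1, and without heterozygous CesA4 replicate 2 the CesA4 fall was called as well (-0.64).

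**Figure D3:**
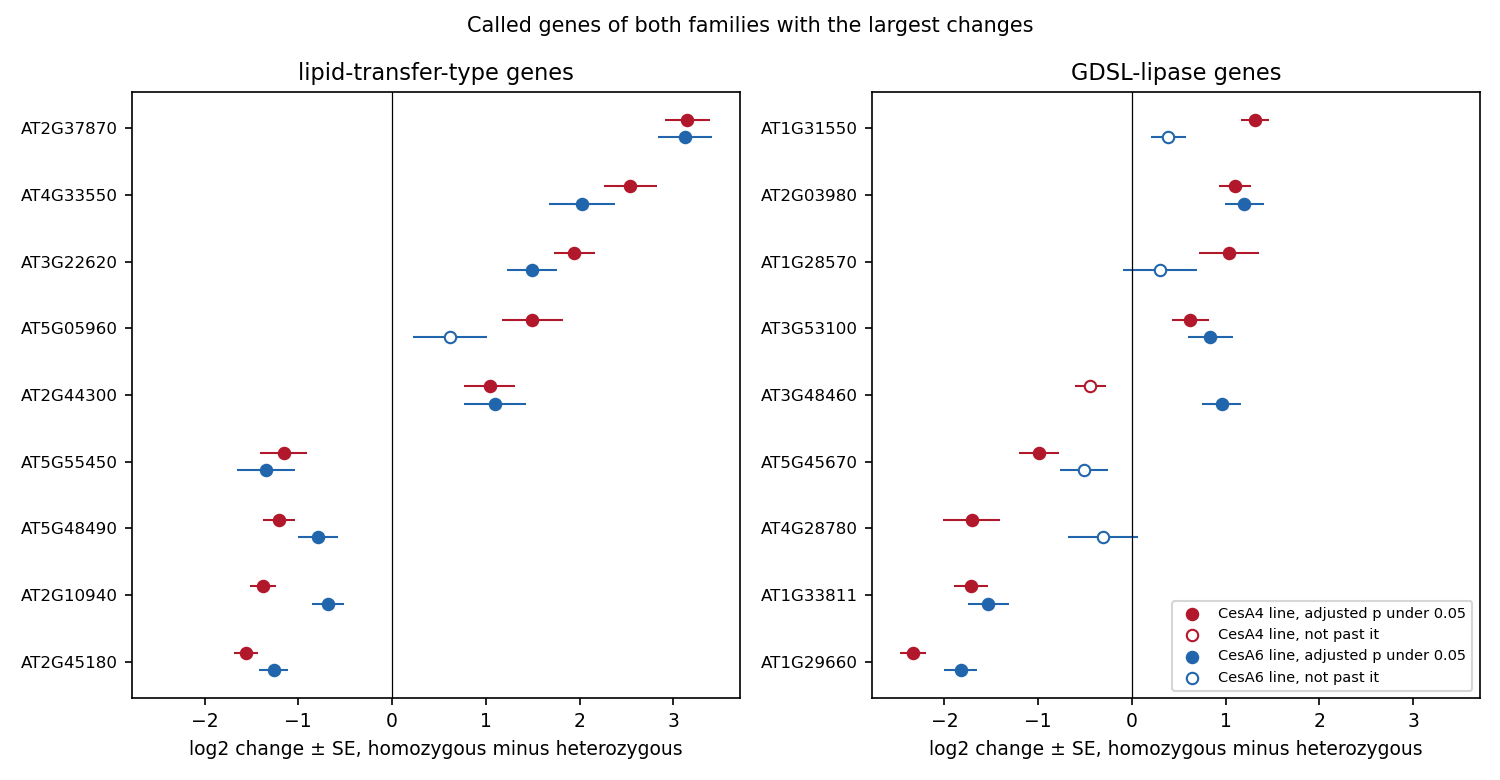
Log2 change, homozygous minus heterozygous, with its standard error for the 9 lipid-transfer-type and 9 GDSL-lipase genes with the largest called changes, the CesA4 line in red and the CesA6 line in blue; filled points passed an adjusted p of 0.05. AT2G37870 reaches 3.15 and 3.12 and AT1G29660 -2.33 and -1.83, and AT3G48460 is the gene drawn with changes of opposite sign.

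Between the lines, 2.64% of all tested probe sets were called higher and 4.11% lower in the CesA4 than in the CesA6 arrays over both genotypes. Of the lipid-transfer-type genes 3 were higher and 3 lower (12% each), and of the GDSL lipases 2 and 3 (5.13% and 7.69%). AT2G45180 was higher in the CesA4 line by 0.81 ± 0.10 (limma adjusted p = 1.56e-05), AT5G48490 by 0.76 ± 0.14 and AT2G10940 by 0.49 ± 0.11. AT5G55450 was lower, with -1.17 ± 0.20 (limma adjusted p = 0.00201). Among the GDSL lipases, AT3G16370 was higher by 0.58 ± 0.11 and AT1G29670 by 0.52 ± 0.12, and AT1G31550 was lower with -0.61 ± 0.12. AT4G12500 (-0.76 ± 0.22), AT3G22620 (-0.65 ± 0.17) and AT5G55050 (-0.67 ± 0.18) were called lower too, but each call was lost on leaving out any of several single arrays of either line, and that of AT1G28570 (-0.99 ± 0.25) on leaving out any CesA6 array. The call of AT2G10940 was lost without homozygous or heterozygous CesA6 replicate 1, and that of AT1G29670 without homozygous CesA6 replicate 1. The line cannot be told apart from any difference in growth or handling that went with it.

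On the chromosome AT1G62510 lies next to AT1G62500, another lipid-transfer-type gene, which did not pass the test. AT1G62500 had -1.24 ± 0.69 and -0.78 ± 0.84 in the CesA4 and CesA6 lines, with an SD of 376 around a mean of 501 in heterozygous CesA4 arrays. Its values were lower in homozygous plants on average, where those of AT1G62510 were higher. Family genes that were not listed or had no named probe set were passed over, so closer ones may exist. The nearest of the rest on the other sides of the members lay 37 or more genes away. Of them AT1G33811, named above, changed, AT1G62790, AT1G54790, AT3G58550, AT4G26790 and AT5G37690 did not pass the test in either line, and 3 were too dim to be tested.

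Shorter lists of well-known family members reached few genes. They had been planned to stand for the families where product text was missing, before the broad lists used above were added. Of 18 lipid-transfer loci 3 were tested: AT5G48490 is named above, AT2G18370 had 1.14 ± 0.61 and 0.04 ± 0.75 and AT4G12490 -0.41 ± 0.30 and -0.33 ± 0.37, neither called. Of 15 GDSL loci 4 had a named probe set and 1 was tested, AT1G75900, with -0.44 ± 0.21 and -0.05 ± 0.25.

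Of 47 listed genes of wax and cutin synthesis, surface lipid transport and their regulators, 3 had a named probe set, so the pathways that the members' families serve were hardly sampled. DEWAX, an AP2/ERF repressor of wax synthesis genes, fell in both lines. Its signal went from 991 to 314 in the CesA4 line and from 751 to 43.3 in the CesA6 line, log2 changes of -1.67 ± 0.18 and -4.05 ± 0.22 (limma adjusted p = 3.37e-07 and 2.51e-11). The fall was larger in the CesA6 line, with a difference of 2.38 ± 0.28 (limma adjusted p = 0.000223, and 0.229 without the trend and robust options). WSD1, a wax ester synthase, rose in the CesA6 line from 13.4 ± 17.1 to 64.5 ± 2.02 (SD, n = 2 each), by 2.58 ± 0.62 (limma adjusted p = 0.00902), and had 0.77 ± 0.50 in the CesA4 line. Its CesA6 call was lost without either homozygous replicate and without heterozygous replicate 1, where the value was 1.24. SHN3, an AP2/ERF activator of surface lipid genes, had 1.14 ± 0.55 in the CesA4 line and 0.25 ± 0.68 in the CesA6 line, and the second value changed sign without homozygous or heterozygous CesA6 replicate 2. No gene of the cutin or transport lists had a named probe set.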

How the data were processed

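The deposited values are linear intensities, MAS5 signals made with GCOS per the submitters' processing notes. The files' build is not given in the sources used here, so no coordinates or sequences are printed. Depth does not apply, and the number of arrays limits the precision.

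Signals were scaled per array (2% trimmed mean of 500), 16 was added and log2 taken. Control probe sets, and the dimmest 30% by mean log2 value, were left out. A mean for each of the 4 groups was fitted with limma 3.58.1 (R 4.3.3) over all 10 arrays, eBayes with trend and robust, with 6 residual and a median of 16 prior degrees of freedom. The fit was tested on simulated data. The platform annotation gave 13513 probe sets 1 gene, 13436 of which matched TAIR10.1, used for symbols and gene order. The brightest probe set stood for genes that have several.

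The members and lists were chosen with earlier results of these data known. The annotation holds no product text, so families were listed by locus from general knowledge, broad lists having been added once this was seen and before their changes were computed. Named were the members, up to 4 called genes per family, comparison and direction with the largest change, every tested gene of the surface lists, the nearest family neighbours and the 3 genes most like each member. Genes AT1G29670 and AT3G16370 are named for the line difference. Alternatives changed the pseudocount, filter, scaling, eBayes options, arrays fitted, replicate block and each array left out.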

Additional observations from a re-analysis of the deposited data

Results flagged for a closer look

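Genes named above are listed here where the difference between the changes of the lines passed the threshold. AT4G18970 was selected on that difference, so its place in the list is not a finding. AT4G18970, a GDSL lipase, had a difference of changes of -1.65 ± 0.37 on the log2 scale, which is a description because the gene was selected on it. AT3G48460, another GDSL lipase, had -1.40 ± 0.27 (limma adjusted p = 0.0164), with changes of opposite sign in the lines, and was no longer called without trend and robust (0.249) or on leaving out any of 5 single arrays. DEWAX (AT5G61590), the wax regulator, had 2.38 ± 0.28 (limma adjusted p = 0.000223), having fallen more in the CesA6 line, and was also not called without trend and robust (0.229).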

How the results depend on the processing

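The 3 tested member changes kept their direction and call under every alternative run, at 2.68 to 3.03 for AT3G53980 and 2.58 to 3.09 for AT1G54020 in the CesA6 line and 2.94 to 3.37 for AT1G62510 in the CesA4 line, with highest limma adjusted p of 0.00463, 0.0072 and 0.000345. Over all probe sets 2410 were called in the CesA4 line (1683 to 2719 under the alternatives), 1358 in the CesA6 line, 88 for the difference of changes and 1074 for the line difference. Without trend and robust in eBayes the last 3 counts were 747, 0 (1629 at an unadjusted p under 0.05, against 1903) and 428, and with arrays left out singly they ran from 717 (without homozygous CesA6 replicate 2) to 1553, from 14 (without heterozygous CesA6 replicate 1) to 130 and from 499 (without heterozygous CesA6 replicate 1) to 1103. The cause was not tested. Calls of named genes that also ended without trend and robust were the CesA6 calls of AT2G44300, AT5G55450, AT5G48490, AT2G10940, AT3G48460 and WSD1, the CesA4 call of AT2G44300, the difference calls of AT3G48460 and DEWAX, and the line calls of AT5G48490, AT2G10940, AT4G12500, AT3G22620, AT1G29670, AT5G55050 and AT1G31550. Median centring ended the CesA6 call of AT5G48490, the CesA4 call of AT3G53100 and the line calls of AT4G12500, AT3G22620 and AT5G55050. Quantile normalization ended the line calls of AT4G12500 and AT5G55050, and no filter the CesA4 call of AT3G53100. Fitting the arrays of the line only ended the CesA6 calls of AT2G44300 and WSD1 and the CesA4 call of AT1G28570.

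Of lipid-transfer-type genes, 8 were called in the CesA6 line and 6 for the line difference. Without trend and robust the counts were 4 and 2, and leaving out arrays gave 4 (without heterozygous CesA6 replicate 2) to 8 and 3 (without homozygous or heterozygous CesA6 replicate 1) to 7. Of GDSL lipases, 5 were called in the CesA6 line (3 to 5 with arrays left out, 3 without homozygous CesA6 replicate 2 or heterozygous CesA6 replicate 1), 1 for the difference of changes and 5 for the line difference. The difference count was 2 with a pseudocount of 16 on the deposited scale or median centring, 0 without trend and robust, and 0 to 2 with arrays left out. The line count was 2 without trend and robust and 2 (without homozygous CesA6 replicate 1) to 5 with arrays left out. CesA6 values past no test that changed sign were those of AT1G29670, -0.046 without homozygous CesA6 replicate 2 (up to 0.31 without replicate 1), and SHN3 (AT5G25390), -0.25 without homozygous and -0.15 without heterozygous CesA6 replicate 2 (up to 0.75). Median centring moved the median difference of changes over all probe sets from 0.08 to -0.07.

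Whether replicate numbers pair the arrays is not known. Deviations of same-numbered arrays correlated at 0.0145 to 0.0822 in the CesA4 line. In the CesA6 line the value was 0.0372 for both numbers, which 2 arrays per group make equal. With a replicate block within lines, calls were 2719 (2410 without it) in the CesA4 line and 1638 (1358) in the CesA6 line. For the difference of changes the block gave 197 calls in place of 88, and 3 GDSL lipases in place of 1. Of 69 values of named genes, no tested one changed its call with the block. The 69 include member values with no test, and the block leaves the size of the changes as it was. Line differences were not fitted with the block. Neither they nor the difference of changes can be fitted from the arrays of a single line.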
